A study of Mus musculus with 4 samples.

Results

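Genes that act in G2 and mitosis were examined in T29, a mouse thymic lymphoma cell line whose series describes it as Ikaros-deficient. The set holds 42 genes chosen by name: the cyclins and kinases that start mitosis, the spindle checkpoint, the machinery that destroys mitotic proteins, kinetochore and spindle proteins, cytokinesis factors and chromosome structure proteins. Each was read from the probe set that names this gene alone and has the highest mean over the arrays. A probe set naming a single gene was found for 41 of the 42, and all 41 passed the filter on dim genes, among 18193 genes of which 11581 passed. Ccnb1, the gene of cyclin B1, was the exception and has no expression value here.

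The study measured RNA on 4 Affymetrix arrays. All cells carried the retroviral construct MigR1-MLER, an inducible dominant-negative form of Mastermind, which blocks transcription driven by Notch receptors. For 24 h they received either ethanol (2 arrays) or 100 nM 4OHT, the tamoxifen metabolite that activates oestrogen receptor fusions (2 arrays). No array of cells without the construct was analysed here, a single cell line was used, and no label tells whether replicates 1 and 2 came from separate cultures. The p-values therefore reflect the spread among these 4 samples alone, and that spread may be technical. All values are the deposited log2 values, and 2 arrays per group limit their precision.

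Genes of G2 and mitosis are transcribed late in the cell cycle. Their promoters are held silent in resting and G1 cells by the DREAM complex, and are switched on by B-MYB with the MuvB core and then by FOXM1. Both act at the cell cycle genes homology region (CHR), a short promoter element, together with NF-Y bound to CCAAT boxes upstream of it. In dividing lymphoblasts and lymphomas the RNA levels of these genes follow how many cells are cycling and where in the cycle they stand.

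The arrays showed the following background. Array medians over all probe sets lay between 5.12 and 5.14. Of 14 T-cell markers listed, 12 had a probe set and 10 passed the filter, Cd3d at 12.79 and Thy1 at 12.98 among them (means over 4 arrays), while Cd2 at 3.64 and Cd5 at 4.65 were below the floor of 4.81. Cd247, Ptprc and Cd8a were called higher and Cd3g lower, and the log2 of the summed T-cell levels was 15.07 and 15.19 in ethanol against 15.26 and 15.33 in 4OHT. Of 26 B-cell, myeloid, erythroid and stromal markers with a probe set, 9 passed. The same sum stayed between 7.07 and 7.27 for B-cell and 7.84 and 7.90 for myeloid markers. It was 7.87 and 8.04 with ethanol against 7.61 and 7.61 with 4OHT for erythroid markers, and 8.59 and 8.63 against 9.08 and 9.20 for stromal, epithelial and endothelial markers, a sum led by Pecam1, which was called higher (0.93, limma adjusted p = 0.0165). The other tested markers of that list, Epcam and Kdr, were at -0.23 and -0.07 and were not called. Among the array controls, the 3′ minus 5′ difference of 18S ribosomal RNA was 0.05 and 0.32 in ethanol against 0.90 and 0.82 in 4OHT. That of Actb was between 0.40 and 0.49 and that of Gapdh between -0.07 and 0.03 on all 4 arrays. The part of these differences in the results below was not tested.

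Many of the promoters found for the set carry the elements named above. RefSeq promoter windows of build GRCm38.p6, from 250 bases before to 50 bases after the gene start, were found for 34 of the 42 genes, and not for Ccna2, Cdc25c, Foxm1, Aurkb, Tpx2, Incenp, Kif20a and Smc4. The CHR was searched as TTTGAA, its variant as TTCGAA and the NF-Y box as CCAAT, each on both strands. The CHR was present in 25 of the 34 genes (73.5%), against 20.2% of 27025 genes with a window and 13.9% of the 9402 of them that were tested on the arrays. It lay within 50 bases of the gene start in 23 genes (67.6%), against 5.72% of all genes with a window. The CCAAT box was present in 26 genes (76.5%, against 41.1%), more than once in 16 (47.1%, against 13.3%), and in the same window as a CHR in 22 (64.7%, against 7.97%). The variant was present in 4 genes, Cdc25b, Bub1, Bub1b and Top2a (11.8%, against 1.80%). Matches of different motifs overlapped in 1 window, that of Cdca8, where a CHR and a CCAAT match share a base. A match describes the letters only; binding was not measured.

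A few of these promoters are shown because they belong to a cyclin, its kinase, a mitotic kinase and an activator of mitotic exit whose values follow. Each is read from 5′ to 3′ on the gene's strand, with CHR and CCAAT matches in capitals (ATTGG is CCAAT on the other strand). Ccnb2 spans chr9:70421545-70421704 (minus strand, from 150 bases before the start to the 10th base after it), Cdc20 chr4:118437344-118437493 (minus), Cdk1 chr10:69352913-69353062 (minus) and Plk1 chr7:122159285-122159434 (plus), the last 3 ending at the base before the start. Cdk1 was added after the sequences were seen.
Ccnb2: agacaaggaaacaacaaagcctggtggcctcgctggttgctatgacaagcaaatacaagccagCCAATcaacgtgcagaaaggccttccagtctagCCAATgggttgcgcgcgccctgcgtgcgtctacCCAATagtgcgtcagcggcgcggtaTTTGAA
Cdc20: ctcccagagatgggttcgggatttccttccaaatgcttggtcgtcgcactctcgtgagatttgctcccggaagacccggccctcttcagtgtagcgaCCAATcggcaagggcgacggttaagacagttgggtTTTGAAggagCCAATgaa
Cdk1: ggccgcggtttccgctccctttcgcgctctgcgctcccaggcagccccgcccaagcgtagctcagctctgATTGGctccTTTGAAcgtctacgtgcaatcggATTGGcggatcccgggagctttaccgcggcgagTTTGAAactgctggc
Plk1: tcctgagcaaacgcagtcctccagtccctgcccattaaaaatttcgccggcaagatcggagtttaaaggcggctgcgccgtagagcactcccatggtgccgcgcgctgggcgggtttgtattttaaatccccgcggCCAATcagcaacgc
Ccnb2 has CCAAT boxes starting at positions -87, -54 and -21 and a CHR match at bases 5 to 10 after the start, where the stretch ends. Another CHR match, at -167, lies outside the stretch. In Cdc20 the CHR starts at -18 between CCAAT boxes that start at -53 and -8. Cdk1 has CHR matches starting at -71 and -15. Plk1 has a CCAAT box starting at -14, and its CHR match lies beyond the stretch, at bases 31 to 36 after the start.

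**Figure D1:**
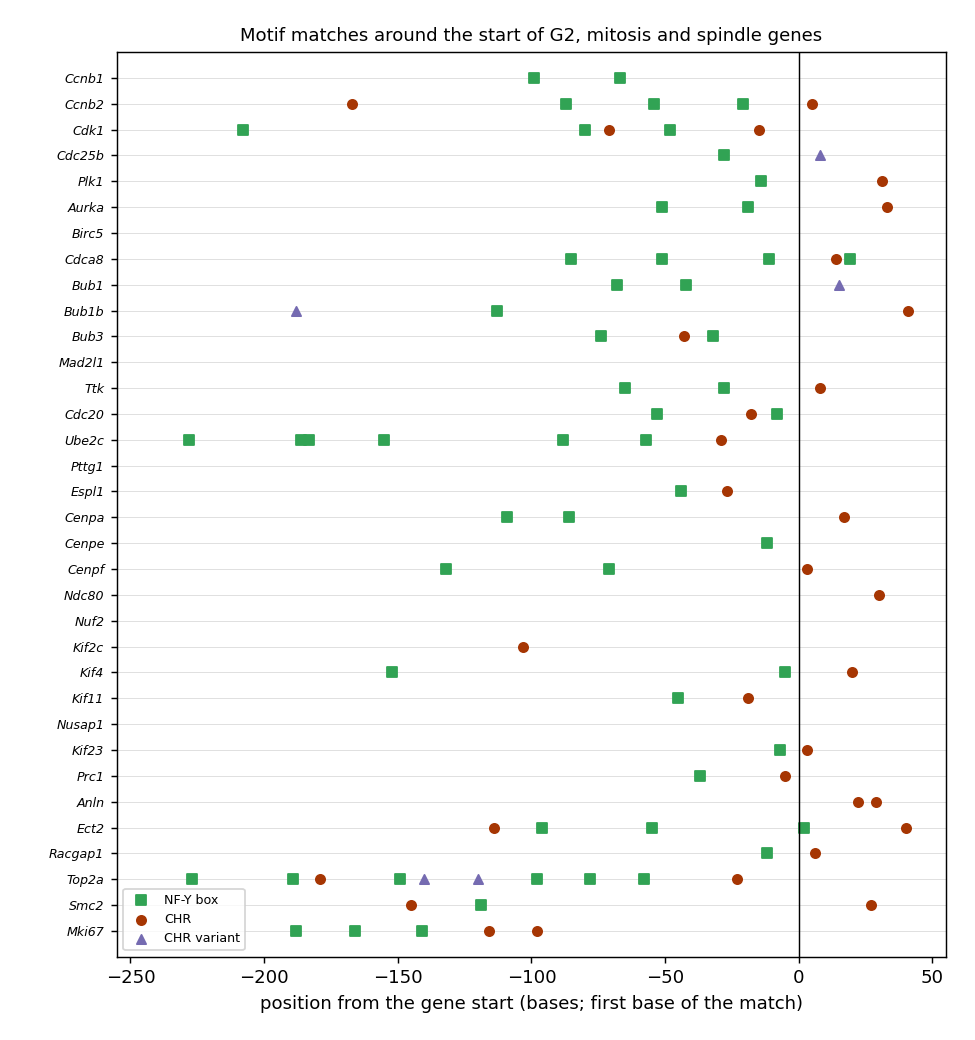
Position of CHR, CHR variant and NF-Y box (CCAAT) matches relative to the gene start (x axis, bases, first base of the match) in the 34 genes with a promoter window (y axis; the first window of each gene). Most CHR matches lie close to the start, and 5 genes (Birc5, Mad2l1, Pttg1, Nuf2 and Nusap1) show no match.

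The comparison of 4OHT with ethanol was made in the study to find genes regulated by Notch. No G2 or mitosis gene passed the test: with limma at an adjusted p under 0.05, 0 of 41 were higher and 0 lower, where 7.47% of all genes tested were called, 3.90% higher and 3.57% lower. Without adjustment, 6 had p under 0.05 and were higher and none lower, against 12.3% and 13.2% of all genes tested. The changes were small and mostly above 0. They ran from -0.18 (Pttg1) to 0.39 (Ccnb2) on the log2 scale, 33 of 41 were above 0 against 47.7% of all genes tested, and their median was 0.12 against -0.01 for all genes tested. In bulk RNA, a different share of cells in G2 or mitosis and a different amount of RNA per cell cannot be told apart.

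Both 4OHT arrays lay above both ethanol arrays for 22 members (26.7% of all genes tested), and below them for 2, Ccna2 and Pttg1 (30.2%); the groups overlapped for the other 17. The precision for a gene taken singly is given by its interval. The 95% interval of the change, from limma and not adjusted for the number of genes, lay within 1.5-fold in both directions for 38 of 41 members, against 75.3% of all genes tested. The exceptions were Ccnb2 (0.18 to 0.61), Cenpe (-0.02 to 0.61) and Cenpf (-0.10 to 0.64), each of which reached past 1.5-fold, 0.58 on the log2 scale, on the upper side only. No member had a change of more than 0.5 in size, as 8.76% of all genes tested had.

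The median above 0 rested largely on 1 array. 4OHT replicate 2 held the highest value of 36 of 41 members, where it held that of 24.6% of all genes tested, and the lowest of none. Ethanol replicate 1 held the lowest value of 22 members (27.7% of all genes). Against ethanol replicates 1 and 2, the median of the members was 0.23 and 0.15 on 4OHT replicate 2, and 0.07 and 0.02 on 4OHT replicate 1. For all genes tested these medians were 0.002 and -0.02 on 4OHT replicate 2, and -0.005 and -0.03 on 4OHT replicate 1. Without 4OHT replicate 2 the median change of the members was 0.05 in place of 0.12, and 28 were above 0; without ethanol replicate 1 it was 0.08, with 30 above 0. Without 4OHT replicate 1 the median was 0.18, and the count of members with 4OHT above ethanol went from 22 to 36. That condition is easier to meet with an array fewer, and its share over all genes was not computed.

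**Figure D2:**
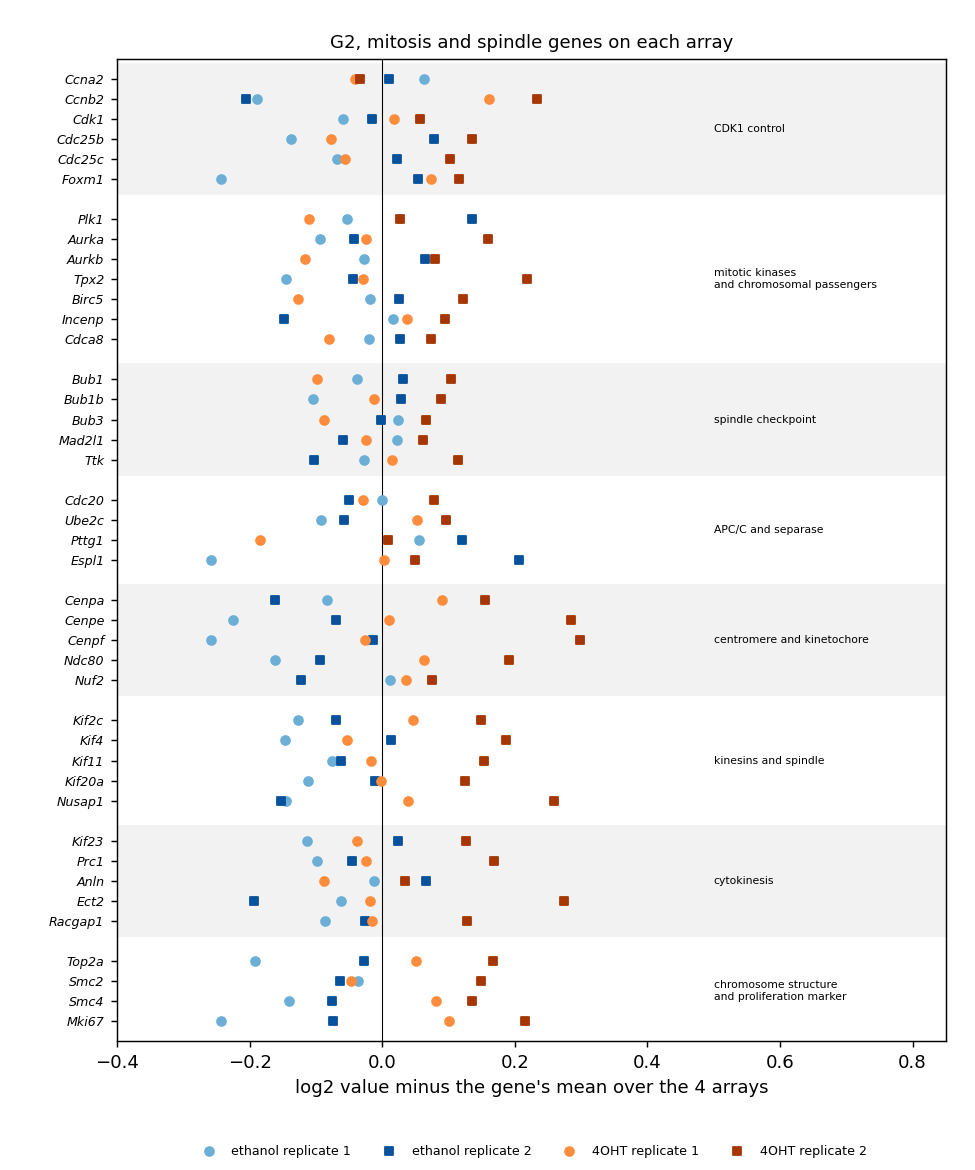
Each row is a gene and each point an array; the x axis is the log2 value minus the gene's mean over the 4 arrays, and shaded bands separate the roles. 4OHT replicate 2 (dark brown squares) is the rightmost point of 36 of the 41 rows. 4OHT replicate 1 lies right of both ethanol arrays in 22 rows and is the leftmost point in 9.

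The control of CDK1, the kinase that drives cells into mitosis, held the largest change. Ccnb2, the gene of cyclin B2, was at 11.78 and 11.76 in ethanol against 12.13 and 12.20 in 4OHT. All 4OHT values were above all ethanol values, and the change of 0.39 ± 0.09 (limma SE, n = 2 each), 1.31-fold, gave an adjusted p of 0.0539. Ccnb2 was called with an adjusted p from 0.00949 to 0.0477 under 6 other settings of the analysis, and in none of the fits that left out an array.

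Cdk1, the kinase itself, was at 11.80 and 11.84 in ethanol against 11.87 and 11.91 in 4OHT, a change of 0.07 ± 0.08 (adjusted p = 0.624). Its groups did not overlap, but the gap between them was as small as the gap within them. Ccna2, the gene of cyclin A2, which acts from S phase to early mitosis, was at 11.59 and 11.53 in ethanol against 11.48 and 11.49 in 4OHT (-0.07, adjusted p = 0.623).

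CDC25 phosphatases remove the inhibitory phosphates from CDK1. Cdc25b was at 10.13 and 10.34 in ethanol against 10.19 and 10.40 in 4OHT, so that the arrays ordered by replicate number and not by treatment, with a change of 0.06 ± 0.12 (adjusted p = 0.803). Cdc25c was at 0.05 (adjusted p = 0.81), with overlapping groups. Foxm1, the transcription factor of the programme, was at 9.08 and 9.38 in ethanol against 9.40 and 9.44 in 4OHT. Its low value was ethanol replicate 1, and the change of 0.19 ± 0.12 did not pass (adjusted p = 0.388).

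The mitotic kinases and the chromosomal passenger complex were closest to 0, with changes from -0.08 to 0.19, a median of -0.01 and 3 of 7 above 0. Plk1, the polo-like kinase of mitotic entry and spindle assembly, was at 10.56 and 10.75 in ethanol against 10.50 and 10.64 in 4OHT (-0.08 ± 0.11, adjusted p = 0.676). Its groups overlapped, and replicate 2 was the higher array in each. Aurka, the centrosomal kinase, and Tpx2, the protein that activates it at the spindle, had differences of 0.14 and 0.19 (adjusted p = 0.45 and 0.36). Of the passenger complex, Aurkb, its kinase (-0.04), Birc5, which encodes survivin (-0.01), and Cdca8, which encodes borealin (-0.01), overlapped between groups. Incenp, the scaffold of the complex, was at 0.13 (adjusted p = 0.445).

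Spindle checkpoint genes, which delay anaphase until chromosomes are attached, ran from -0.02 to 0.13 with a median of 0.04. Bub1 (0.01), Bub1b (0.08), Bub3 (-0.02) and Mad2l1 (0.04) overlapped between groups. For Ttk, the gene of the kinase MPS1, the 4OHT arrays at 9.23 and 9.33 stood above the ethanol arrays at 9.19 and 9.11 (0.13 ± 0.09, adjusted p = 0.421).

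The anaphase-promoting complex marks mitotic proteins for destruction, and separase then cuts cohesin. Cdc20, its activator in mitosis, was at 12.47 and 12.42 in ethanol against 12.44 and 12.55 in 4OHT (0.05 ± 0.09, adjusted p = 0.768), and its groups overlapped. Ube2c, its ubiquitin-conjugating enzyme, had a difference of 0.15 (adjusted p = 0.326). Pttg1, which encodes securin, the inhibitor of separase, had the lowest change of the set, at 11.11 and 11.17 in ethanol against 10.87 and 11.06 in 4OHT (-0.18 ± 0.10, adjusted p = 0.344). Espl1, which encodes separase, was at 10.42 and 10.88 in ethanol against 10.68 and 10.73 in 4OHT. The ethanol arrays lay on either side of the 4OHT arrays, and the change of 0.05 ± 0.16 had the largest SE of the set.

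Centromere and kinetochore genes had the highest median of the roles, 0.26, and all 5 were above 0. Cenpa, the centromeric histone H3 variant, was at 11.18 and 11.10 in ethanol against 11.35 and 11.42 in 4OHT (0.24 ± 0.09, adjusted p = 0.161). Ndc80, of the complex that holds microtubules, was at 8.87 and 8.94 in ethanol against 9.10 and 9.23 in 4OHT (0.26 ± 0.09, adjusted p = 0.166). Both kept their groups apart, and neither passed.

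Cenpe, a kinetochore motor gene, was at 9.77 and 9.93 in ethanol against 10.01 and 10.28 in 4OHT (0.30 ± 0.13, adjusted p = 0.218). Cenpf, a large coiled-coil protein of the kinetochore, was at 9.91 and 10.16 in ethanol against 10.14 and 10.47 in 4OHT (0.27 ± 0.15, adjusted p = 0.314). For Cenpf, 4OHT replicate 1 lay just below ethanol replicate 2. Nuf2, the partner of Ndc80, was at 0.11 (adjusted p = 0.504).

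Kinesins and spindle proteins ran from 0.12 to 0.30, all 5 above 0. Nusap1, which bundles spindle microtubules near chromosomes, was at 11.52 and 11.51 in ethanol against 11.71 and 11.93 in 4OHT. The ethanol arrays were almost equal and the 4OHT arrays well apart, and the change of 0.30 ± 0.11 did not pass (adjusted p = 0.156). Kif2c, a microtubule depolymerase (0.20), Kif4, a chromosome-bound motor (0.13), Kif11, the motor that separates spindle poles (0.14), and Kif20a, a motor of the central spindle (0.12), had adjusted p-values from 0.244 to 0.532. Among the cytokinesis genes, Ect2, the exchange factor that activates RhoA at the division plane, had the largest change (0.26 ± 0.13, adjusted p = 0.276). Its partner Racgap1 (0.11) and the central spindle genes Kif23 (0.09) and Prc1 (0.14) had smaller differences, and Anln, which encodes the ring scaffold anillin, was at -0.05.

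Chromosome structure genes were all above 0, with a median of 0.22. Mki67, the gene of the proliferation marker Ki-67, was at 12.17 and 12.34 in ethanol against 12.51 and 12.63 in 4OHT (0.32 ± 0.10, 95% interval 0.06 to 0.57, adjusted p = 0.13). Smc4, a condensin subunit gene, was at 12.36 and 12.42 in ethanol against 12.58 and 12.63 in 4OHT (0.22 ± 0.09, adjusted p = 0.194). These groups did not overlap, and both genes were called only where limma let the variance follow intensity (adjusted p = 0.0438 and 0.0496, and 0.0404 and 0.0466 with a robust prior).

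Top2a, topoisomerase II alpha, was at 12.44 and 12.60 in ethanol against 12.68 and 12.80 in 4OHT (0.22 ± 0.10, adjusted p = 0.25). Smc2, the other condensin ATPase gene, was at 0.10, and its groups overlapped (adjusted p = 0.581).

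**Figure D3:**
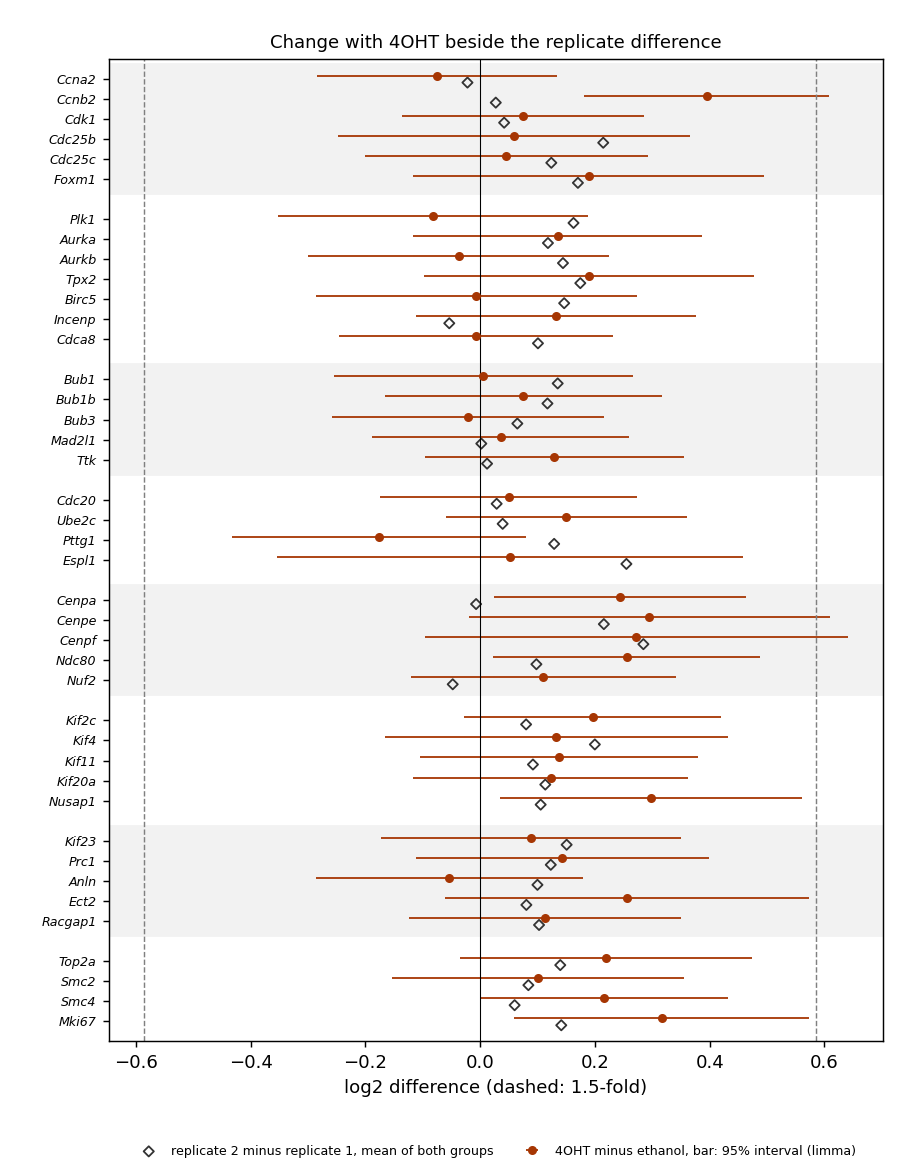
Filled points give the log2 change with 4OHT and bars its 95% interval from limma; open diamonds give replicate 2 minus replicate 1, averaged over the ethanol and the 4OHT arrays. Dashed lines mark 1.5-fold, which 3 intervals cross (Ccnb2, Cenpe and Cenpf), and most diamonds lie to the right of 0 like the filled points.

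The replicate difference was of the same order as the change with 4OHT. Over the members, replicate 2 minus replicate 1 had a median of 0.11, against 0.02 for all genes tested, beside the median change of 0.12 with 4OHT. Within the 4OHT arrays all 41 members were higher in replicate 2, with a median of 0.14, where 53.4% of all genes tested were. Within the ethanol arrays 29 of 41 were higher, with a median of 0.06, where 54.6% of all genes were. These 29 were higher in replicate 2 in both groups, against 32.3% of all genes tested, and no member was lower in both, against 24.2%. The change with 4OHT exceeded the replicate difference in size for 27 of 41 members, 65.9%, and for 66.3% of all genes tested.

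Taken gene by gene, no replicate difference passed. With the treatment in the limma model, 0 members were called higher or lower in replicate 2 (1.30% of all genes tested were called, 0.907% higher and 0.389% lower), and 1, Cenpf, had an unadjusted p under 0.05, as 12.1% of all genes tested did. Cenpf had the largest replicate difference, 0.25 within ethanol and 0.32 within 4OHT (mean 0.28 ± 0.10, adjusted p = 0.254). Espl1 differed by 0.46 within ethanol and 0.05 within 4OHT, Cenpe by 0.16 and 0.28, and Cdc25b by 0.22 and 0.21. Incenp was the lowest, at -0.16 within ethanol and 0.06 within 4OHT. Of the control genes, some had 3′ minus 5′ differences that went with the replicate number in both groups. For pyruvate carboxylase they were 0.88 and 0.93 in replicate 1 against 1.29 and 1.49 in replicate 2. For the transferrin receptor they were 1.33 and 1.45 against 1.97 and 1.73. From replicate 1 to 2 in ethanol, Gapdh went from -0.07 to 0.03, Actb from 0.40 to 0.49 and 18S from 0.05 to 0.32. In 4OHT Gapdh was at -0.03 in both replicates, Actb at 0.43 and 0.45, and 18S at 0.90 and 0.82. The part of these controls in the replicate difference was not tested.

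**Figure D4:**
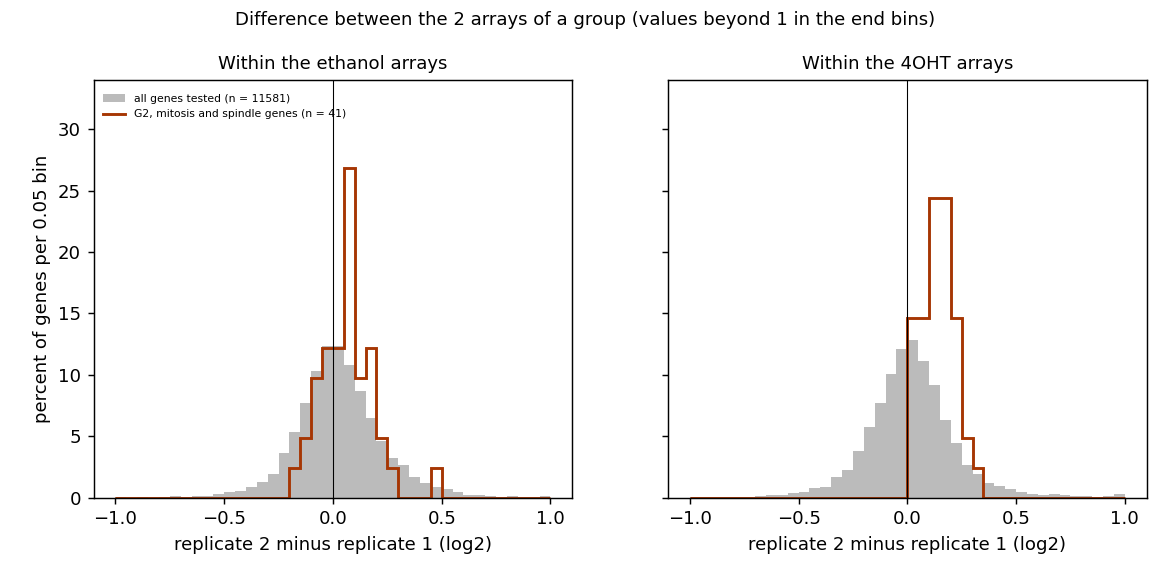
Percent of genes (y axis) by replicate 2 minus replicate 1 (x axis, log2, bins of 0.05) within the ethanol arrays (left) and the 4OHT arrays (right), for all 11581 genes tested (grey) and the 41 members (brown line). Within the 4OHT arrays every member lies above 0, while the grey distribution is centred near 0.

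Other probe sets of the same genes gave a second reading of the same RNA. Of 94 probe sets naming a member, 41 were used, and of the other 53 there were 43 above the floor. None of the 43 was called when all 20967 probe sets above the floor were tested together, of which 4.02% were called. Their median change was 0.09, with 30 above 0 and 3 at an unadjusted p under 0.05, all higher. The shares over all probe sets were not computed for these counts. Over all genes tested, 47.7% were above 0, and at this p 12.3% were higher and 13.2% lower. Among 26 genes with more than 1 probe set above the floor, 20 had all of them on the same side of 0.

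Single genes showed where the reading depends on the probe set. The largest change was that of another Incenp probe set, 0.50 (adjusted p = 0.0666), against 0.13 for the one used. A second Cenpa probe set was at 0.47 (adjusted p = 0.104), beside 0.24. All 3 Smc4 probe sets were between 0.22 and 0.31, and all 3 Pttg1 probe sets between -0.26 and -0.08. For Cenpe and Cenpf the second probe set was at -0.01 and -0.09, against 0.30 and 0.27 for the one used. These second probe sets were dimmer, with means of 6.40 and 5.63 against 10.00 and 10.17. The probe set used ended in _x_at for 3 genes (Cdc20, Cdc25c and Incenp) and in _s_at for 5, the suffixes that mark possible cross-hybridisation.

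**Figure D5:**
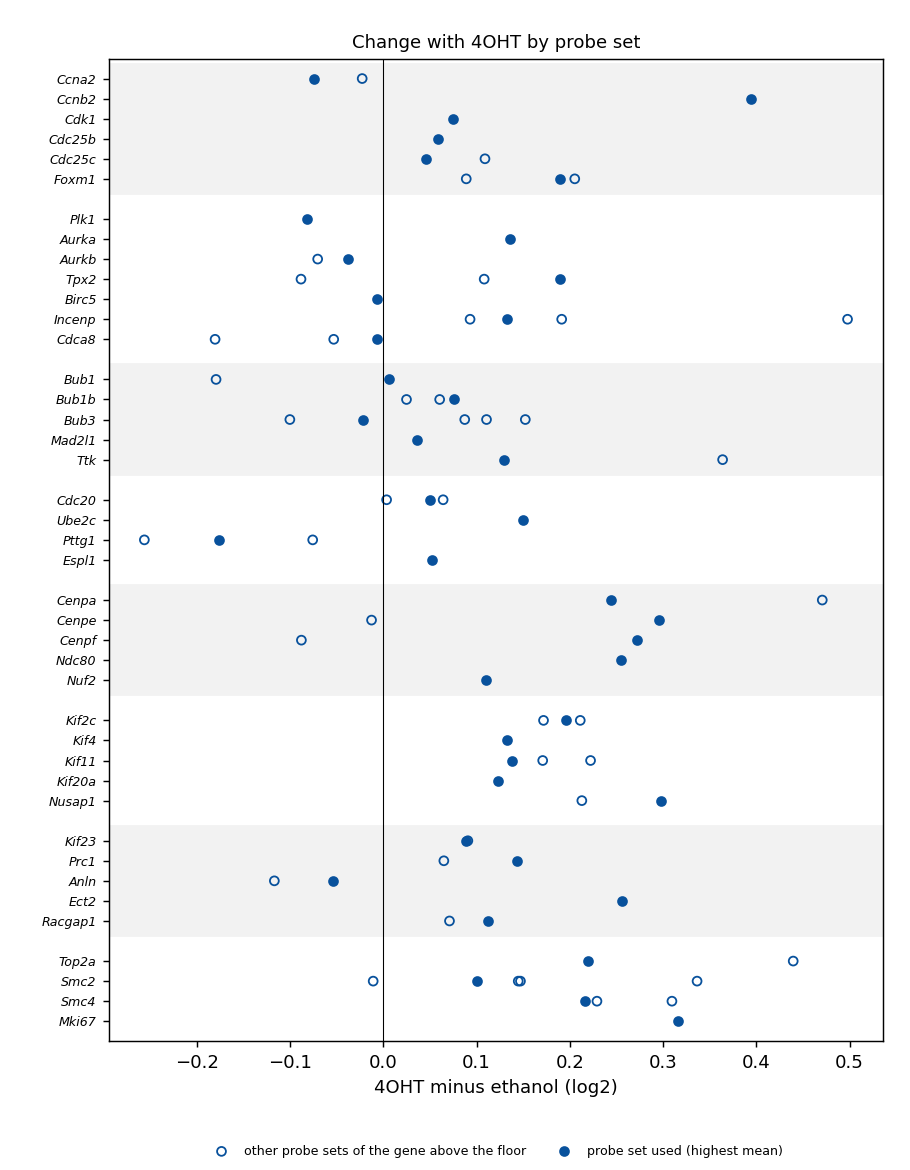
Change with 4OHT (x axis, log2) of every probe set above the floor that names a member; filled circles are the probe sets used. Genes such as Pttg1, Kif2c and Smc4 have all their probe sets on the same side of 0, while Bub3, Cenpe and Cenpf have them on both. The Bub3 probe sets above 0 are dim, with means from 4.99 to 6.34.

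Other genes of the pathway were described by the same counts. Of 73 tested G2 and mitosis genes outside the set, none was called by limma in either direction, where 7.47% of all genes tested were. At an unadjusted p under 0.05 there were 6 above and 0 below, where 12.3% and 13.2% of all genes tested were. Of the 73, 54 were above 0 (47.7% of all genes tested), with a median change of 0.09. The 4OHT arrays were above the ethanol arrays for 30 (26.7% of all genes tested) and below for 4 (30.2%). These genes too were mostly higher in 4OHT replicate 2 than in 4OHT replicate 1, 55 of 73 with a median of 0.08, and 41 of 73 were higher in ethanol replicate 2 than in ethanol replicate 1, with a median of 0.01. Some genes were named in advance, though with earlier results of these data known. Of those, the CDK1-inhibiting kinase genes Wee1 and Pkmyt1 were at -0.02 and -0.03, and the CDK subunit gene Cks2 at -0.02. Fzr1, the late-mitotic APC activator gene, was at 0.09 and the spindle gene Hmmr at -0.11 (adjusted p from 0.562 to 0.923 over all of these). Hmmr was at 0.15 when its probe sets were averaged, and Wee1, Pkmyt1 and Cks2 also turned sign under another setting or with an array left out. The highest value was that of Bora, an activator of Aurora A and PLK1, which was named after its value was seen: 9.20 and 9.29 in ethanol against 9.74 and 9.56 in 4OHT (0.41 ± 0.10, adjusted p = 0.0789).

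Of the regulators of these promoters, limma called 0 of 11, where 7.47% of all genes tested were called. Of the 11, 1 gene was higher at an unadjusted p under 0.05, as 12.3% of all genes tested were, and the median was 0.03. Mybl2, the gene of B-MYB, was at 9.20 and 9.34 in ethanol against 9.21 and 9.06 in 4OHT (-0.14, adjusted p = 0.444). Lin9, of the MuvB core, was at 6.50 and 5.95 in ethanol against 6.50 and 6.43 in 4OHT (0.24, adjusted p = 0.467), ethanol replicate 2 being the low array, without which the difference was -0.03. The gene with the unadjusted p under 0.05 was Rbl2, which encodes the DREAM pocket protein p130, at 8.08 and 8.48 in ethanol against 8.85 and 8.97 in 4OHT (0.63 ± 0.15, adjusted p = 0.0659).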

How the data were processed

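Expression was deposited on the log2 scale for every probe set of each array. The authors computed these values with RMA, as listed in the submitters' processing notes; its version was not given in the sources used here. RMA corrects the background, equalises the arrays and summarises the probes of a set, so a shift common to all genes cannot be seen, and small folds of bright genes may be compressed. That the scale is log2 was inferred from the range of values (2.25 to 14.6).

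Of 45101 probe sets, 34945 named 1 gene and 932 several in the platform annotation, and 9211 were unnamed. Each gene was read from its probe set with the highest mean, and only genes whose mean reached the 40th percentile of probe sets naming 1 gene (4.81) were tested. The treatment contrast was fitted in limma 3.58.1 under R 4.3.3 (no block, no trend). P-values were Benjamini-Hochberg adjusted over 11581 genes, and a gene was called below 0.05. The replicate difference was fitted with the group in the model, leaving 1 residual degree of freedom. The fit was tested on simulated data. Exact permutation of 2 against 2 arrays cannot go below p = 0.333, so none is given.

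Members, roles and lists were chosen with earlier results of these data known. Values on each array are given for members with an unadjusted p under 0.05, the 4 with the largest replicate difference, and Ccnb1 (no value), Cdk1, Plk1, Top2a, Mki67, Foxm1 and Cdc20; Ccna2, Ttk, Pttg1, Bora and Rbl2 and 3 S phase genes were added after seeing values. Of the other lists, called genes and 7 genes named in advance are given, and promoters of Ccnb2, Cdc20 and Plk1. Alternatives were the filter, normalization, the replicate block, the probe set per gene, the variance prior, the threshold and each array left out. The replicate differences of the 2 groups had Pearson's r = 0.34 across the genes tested and 0.14 across the members; the labels do not say that a number marks a shared batch.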

Additional observations from a re-analysis of the deposited data

How the results depend on the processing

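No setting called a member lower with 4OHT or different between replicates. The number of members called higher was 0 in the analysis as reported, where 865 genes were called in all. It was 1 (Ccnb2) with quantile normalization (874 genes called in all), a 60th percentile filter (1008), averaged probe sets (763), or an adjusted p under 0.10 (1677). It was 3 (Ccnb2, Mki67 and Smc4) with an intensity trend in the prior (1299 in all) or a trend and a robust prior (1345). With the replicate block it was 1 (Ccnb2, adjusted p = 0.0221), while calls over all genes went from 865 to 2135. With no filter, median centring, or no _x_at and _s_at probe sets it stayed at 0. For other G2 and mitosis genes it was 2 with the replicate block (Aspm and Bora), and 2 with either trend or an adjusted p under 0.10 (Arhgap11a and Bora). In the lower direction, Lmnb1 of the same list changed by -0.37 with all arrays and by -0.93 without ethanol replicate 2. Its values were 10.40 and 9.28 in ethanol against 9.55 and 9.39 in 4OHT, so its ethanol arrays lay far apart. S phase genes gave 1 higher (Rrm2) with either trend, and 1 lower (Pold1) with the 60th percentile, the replicate block, either trend or an adjusted p under 0.10. The cause was not tested. Leaving out 1 array in turn gave a median change of the members of 0.05 to 0.18. Members with 4OHT above ethanol numbered 22 to 36, counts added after seeing the data. That condition is easier to meet with an array fewer, and its share over all genes was not computed. Fits without an array keep 1 residual degree of freedom. Of 15 named members, the change turned sign in 5 of 210 recomputed values, none of them called: Cdc25b without ethanol replicate 1 and without 4OHT replicate 2, Espl1 without ethanol replicate 1, Plk1 without ethanol replicate 2 and Cdc20 without 4OHT replicate 2. Every member used had a mean above the floor of 4.81.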

Other observations

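Genes of S phase and DNA replication act just before the G2 and mitosis set. Of 40 tested, none was called by limma, where 7.47% of all genes tested were. At an unadjusted p under 0.05, 1 was higher and 7 were lower, where 12.3% and 13.2% of all genes tested were. Of the 40, 8 were above 0 (47.7% of all genes tested), with a median change of -0.08. Both 4OHT arrays were above the ethanol arrays for 5 of them (26.7% of all genes tested) and below for 20 (30.2%), and overlapped for 15, where the G2 and mitosis set had 22 above and 2 below; the difference between these sets was not tested. Of the 40, 18 were higher in replicate 2 within the 4OHT arrays and 21 within the ethanol arrays. Pold1 and E2f1 were nearest to a call. Prim2, also lower, came next (-0.34 ± 0.10, limma adjusted p = 0.115), and Rrm2 was the nearest of those higher. All were chosen after their values were seen. Pold1, a DNA polymerase delta subunit gene, was at 11.22 and 11.13 in ethanol against 10.82 and 10.77 in 4OHT (-0.38 ± 0.09, adjusted p = 0.0626). E2f1, a transcription factor gene of S phase entry, was at 9.30 and 9.41 in ethanol against 9.08 and 8.96 in 4OHT (-0.34 ± 0.10, adjusted p = 0.101). Rrm2, the ribonucleotide reductase subunit gene, was at 12.56 and 12.45 in ethanol against 12.77 and 12.84 in 4OHT (0.30 ± 0.09, adjusted p = 0.116).

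The CHR, frequent among mitotic promoters, was present in 4 of 34 S phase genes with a promoter window (11.8%), and in 30 of 61 other G2 and mitosis genes (49.2%). Among members, the median change with 4OHT was 0.13 for the 25 tested genes with a CHR and 0.05 for the 8 without, and the median replicate difference was 0.10 and 0.13. Bub1 and Cdc25b, counted as without, carry the CHR variant, and the difference between these groups was not tested. Over all tested genes with a window, 7.32% of 1311 genes with a CHR were called and 7.58% of 8091 without, with median changes of 0.00 and -0.01.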
